A study of Mus musculus with 6 samples.

Results

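The 10 genes described here encode the transcription factors and cofactors that specify mast cells, erythroid cells and megakaryocytes, with the T cell factor Gata3 as the third GATA protein of the blood. They are Gata1, Gata2, Gata3, Zfpm1, Tal1, Lmo2, Lyl1, Klf1, Gfi1b and Mitf, a list of names drawn up with earlier results of these data known. All probe sets whose platform annotation named 1 of these genes and no other were taken, which gave 13 of the 45101 probe sets of the array. Gata2, Zfpm1 and Mitf had 2 probe sets each, and the other 7 genes had 1.

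The cells were sorted from mouse bone marrow and expressed the leukaemia fusion oncogene MLL-AF9, in 2 groups of 3 samples. The Mn1wt group had an intact Mn1 gene, and in the Mn1null group Mn1, which encodes a transcriptional cofactor, was deleted with CRISPR-Cas9. Both groups had also received an EGFP control vector and grew with the cytokines mIL3, hIL6 and mSCF. The labels do not say whether a group was 1 clone, or where its replicates were derived from. The p-values therefore reflect sample-to-sample spread alone, and this may be technical.

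GATA factors bind GATA motifs in DNA. GATA2 acts in stem and progenitor cells and in mast cells, and GATA1 takes over many of the same sites during erythroid and megakaryocyte maturation. GATA1 works with the cofactor FOG1, the product of Zfpm1, and in a DNA-bound complex with TAL1 or its close relative LYL1, which bind E-boxes, and the bridging protein LMO2. KLF1 is the activator of the adult globin genes, and GFI1B is a transcriptional repressor that acts within the erythroid and megakaryocyte lineages. MITF is the leucine zipper factor that acts with GATA2 in mast cells.

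Because GATA factors are known to act on each other's genes, the RefSeq promoters (GRCm38.p6) were searched for GATA motifs, here the letters AGATAA or AGATAG or TGATAA or TGATAG on either strand, in the 250 bases before each start site. RefSeq windows were held for 9 of the 10 genes, Lmo2 not among them, and comprised 13 windows, of which 5 in 4 genes held a match. Of all 32851 promoter windows of the same length, 26.5% held one. The windows of Tal1 start 1, Klf1 and Gfi1b are shown because these genes were higher in Mn1null and hold a match. That of Gata1 is shown because the gene was higher and its window holds none. That of Mitf start 3 is shown because it holds 2 matches while the gene was not called. Of all windows, 6.4% held 2 or more. The window of Mitf start 2 holds 1 match, at -36 to -31, and is not shown. Both windows of Gata2, that of Zfpm1 and that of Tal1 start 2 also hold none, although these genes were higher, and they are not shown. GATA matches are in capitals, each sequence reads 5′ to 3′ along the gene, and its last base lies just before the start site.
Gata1 (chrX:7967911-7968160, - strand): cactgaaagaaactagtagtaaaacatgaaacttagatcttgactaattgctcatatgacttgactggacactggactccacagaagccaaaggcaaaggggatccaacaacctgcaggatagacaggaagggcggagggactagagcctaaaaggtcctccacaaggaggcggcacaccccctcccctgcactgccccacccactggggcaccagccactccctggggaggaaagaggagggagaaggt
Tal1 start 1 (chr4:115056176-115056425, + strand): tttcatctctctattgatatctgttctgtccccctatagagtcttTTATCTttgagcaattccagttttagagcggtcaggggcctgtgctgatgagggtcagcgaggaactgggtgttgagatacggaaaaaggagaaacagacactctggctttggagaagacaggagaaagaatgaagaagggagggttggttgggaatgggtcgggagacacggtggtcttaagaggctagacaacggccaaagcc
Klf1 (chr8:84901732-84901981, + strand): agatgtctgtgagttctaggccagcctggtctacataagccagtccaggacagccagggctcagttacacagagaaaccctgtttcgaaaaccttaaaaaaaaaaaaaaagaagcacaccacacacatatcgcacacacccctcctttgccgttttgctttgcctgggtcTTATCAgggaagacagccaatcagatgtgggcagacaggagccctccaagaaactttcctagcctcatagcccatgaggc
Gfi1b (chr2:28621983-28622232, - strand): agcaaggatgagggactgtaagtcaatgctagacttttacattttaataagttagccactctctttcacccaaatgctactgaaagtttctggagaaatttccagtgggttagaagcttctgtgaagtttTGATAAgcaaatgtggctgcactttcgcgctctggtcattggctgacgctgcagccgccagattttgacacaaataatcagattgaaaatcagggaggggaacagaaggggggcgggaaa
Mitf start 3 (chr6:97991533-97991782, + strand): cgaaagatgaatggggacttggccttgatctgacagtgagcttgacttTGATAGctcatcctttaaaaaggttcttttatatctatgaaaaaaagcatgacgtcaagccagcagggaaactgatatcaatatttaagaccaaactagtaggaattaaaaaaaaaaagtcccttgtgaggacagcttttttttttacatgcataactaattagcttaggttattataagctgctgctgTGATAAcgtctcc

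Counted from -1 at the last base before the start site, the match lay at -205 to -200 in Tal1, at -80 to -75 in Klf1 and at -120 to -115 in Gfi1b. In Mitf start 3 the matches lay at -202 to -197 and at -13 to -8. The Klf1 window also held the E-box CAGATG, which TAL1 complexes are known to bind, at -59 to -54. It was the only one of the 13 windows with that E-box on either strand, against 14.4% of all windows. The E-boxes CACGTG and CATGTG, bound by MITF, were in 0 of the 13 windows and in 17.6% of all windows. No motif searched contains another. A match is a run of letters and was not tested as a binding site.

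Gata1, Gata2, Zfpm1, Tal1, Klf1 and Gfi1b were higher in Mn1null, Lmo2 was lower, and Gata3, Lyl1 and Mitf did not pass the test. Values are log2 expression after RMA, a normalization that compresses low signals towards a floor, and folds are back-transformed differences of group means. Groups were compared with limma, a linear model that draws the spread of each probe set towards a value estimated from all of them. Its p-values were adjusted over the 45037 probe sets that are not array controls, with a threshold of 0.05. Of the 13 probe sets, 8 were higher and 1 was lower, against 13.2% of all probe sets higher and 14.7% lower. The median difference of the 13 was 0.92, and that of all probe sets was -0.0003. With each gene read from its brightest probe set on average, 6 of the 10 genes were higher and 1 was lower, against 16.7% and 18.0% of 18193 genes. The groups did not overlap on 10 of the 13 probe sets, against 41.1% of all probe sets.

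**Figure D1:**
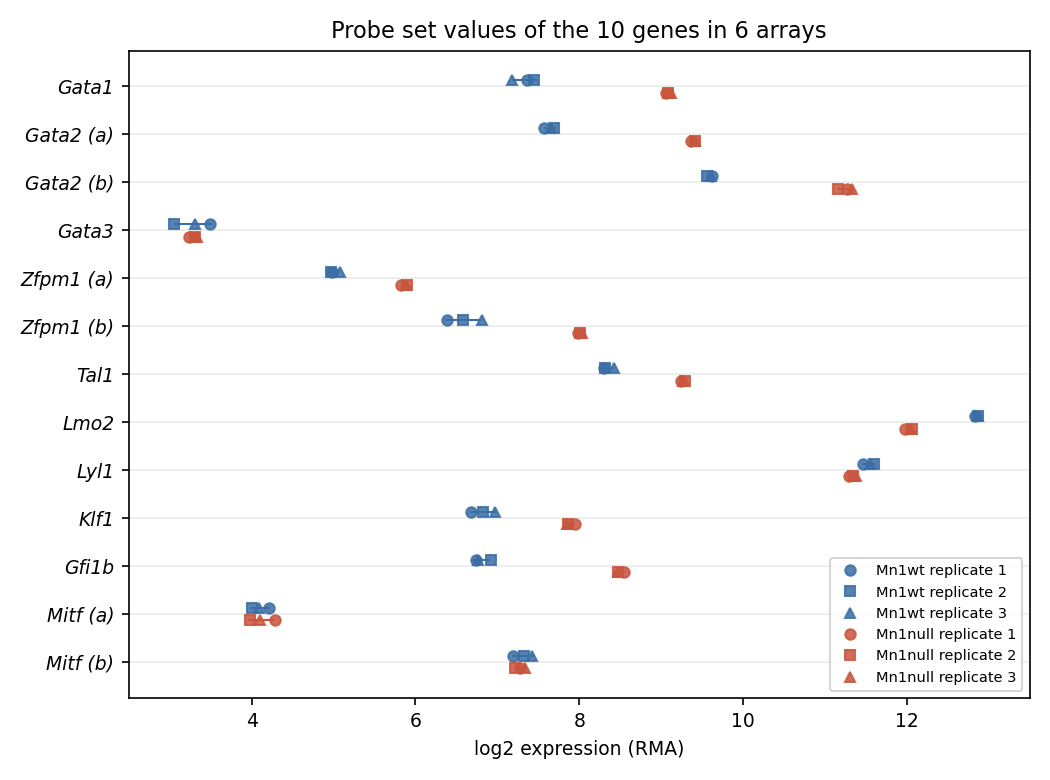
Log2 expression (horizontal axis) of the 13 probe sets of the 10 genes, with 1 point for each of the 6 arrays, the colour showing the group and the symbol the replicate number. Bars span the group mean ± 1 SD (n = 3), and letters mark the 2 probe sets of a gene in the order of their mean. The groups lie apart for Gata1, Gata2, Zfpm1, Tal1, Lmo2, Klf1 and Gfi1b, lie close for Lyl1 and overlap for Gata3 and Mitf.

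Gata1, the GATA factor of erythroid cells, megakaryocytes, mast cells and eosinophils, read 7.36, 7.45 and 7.18 in the 3 Mn1wt samples and 9.05, 9.08 and 9.12 in the 3 Mn1null samples. The lowest Mn1null value lay 1.61 above the highest Mn1wt value, and the Mn1wt samples were the more scattered (SD 0.14 against 0.034, n = 3 each). The difference was 1.76 ± 0.081 (SE), which is 3.38-fold (95% interval of the log2 difference 1.57 to 1.95, limma adjusted p = 5.72e-06). Only 1.25% of all probe sets had a larger difference in either direction.

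Gata2, the GATA factor of progenitors and mast cells, was read by 2 probe sets that moved by nearly the same amount. The brighter one read 9.63, 9.56 and 9.61 in Mn1wt and 11.26, 11.17 and 11.33 in Mn1null. The dimmer one read 7.57, 7.70 and 7.65 in Mn1wt and 9.36, 9.42 and 9.41 in Mn1null. On both, all Mn1null samples stood at least 1.54 above all Mn1wt samples. The differences were 1.65 ± 0.066 (SE, 3.14-fold, limma adjusted p = 2.62e-06) and 1.76 ± 0.061 (3.38-fold, adjusted p = 1.51e-06). In Mn1null the brighter probe set stood at the 96.0th percentile of all probe sets, and in Mn1wt at the 87.8th.

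Gata1 and Gata2 were higher together. The log2 ratio of Gata1 over Gata2 within an array was -2.27 ± 0.16 in Mn1wt and -2.17 ± 0.072 in Mn1null (SD, n = 3 each), so it differed by 0.11 (exact permutation test, 2-sided, p = 0.4; adjusted p = 0.4 over the 3 ratios tested). The smallest 2-sided p that 3 against 3 samples allow is 0.1. The level of the ratio itself has no meaning, since it compares different probe sets, and only its change between groups was read.

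Zfpm1, which encodes the GATA cofactor FOG1, rose on both of its probe sets, by unequal amounts. The brighter one read 6.38, 6.58 and 6.81 in Mn1wt and 7.99, 8.02 and 8.04 in Mn1null, a difference of 1.42 ± 0.11 (SE, 2.68-fold, limma adjusted p = 6.06e-05). The dimmer one read 4.98, 4.96 and 5.08 in Mn1wt and 5.83, 5.90 and 5.88 in Mn1null, a difference of 0.86 ± 0.062 (1.82-fold, adjusted p = 5.19e-05). Both separated the groups without overlap, and the Mn1wt spread of the brighter probe set (SD 0.21) was among the widest of the 13. In Mn1wt the dimmer probe set stood at the 47.4th percentile of all probe sets and the brighter one at the 65.1st. The ratio of Gata1 over the brighter Zfpm1 probe set differed by 0.34 between the groups, without overlap. This was at the smallest p the design allows (exact permutation test, 2-sided, p = 0.1, adjusted p = 0.15). Without Mn1wt replicate 3 the difference was 0.15. The size of this shift depends on the probe set, since the dimmer one rose by less.

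Gata3, the GATA factor of T cells and innate lymphoid cells, was at the bottom of the signal range in both groups. It read 3.49, 3.05 and 3.30 in Mn1wt and 3.24, 3.30 and 3.34 in Mn1null, at the 10.5th percentile of all probe sets. The groups overlapped, with a difference of 0.012 (95% interval -0.25 to 0.27, limma adjusted p = 0.956), an interval that holds for this dim signal and not for the transcript, since RMA can flatten changes near its floor. The T cell receptor complex genes Cd3e, Cd3d, Cd3g and Cd247 and the recombinase gene Rag1 did not pass either, with group means between 2.88 (Rag1, Mn1null) and 5.60 (Cd3e, Mn1null). Other genes of the same T and NK cell list were bright or changed. Zap70 had group means of 8.83 and 9.05 on its brightest probe set and did not pass there. Its other probe sets gave -0.33 (limma adjusted p = 0.0224) and 0.095 (not passing). Thy1 and Lat rose, and Cd28 and Il7r fell.

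Tal1, the E-box binding partner of GATA1, read 8.30, 8.32 and 8.42 in Mn1wt and 9.25, 9.29 and 9.27 in Mn1null. All Mn1null samples lay at least 0.82 above the Mn1wt samples, a difference of 0.92 ± 0.062 (SE, 1.89-fold, limma adjusted p = 3.69e-05). Lyl1, the closest relative of Tal1, read 11.46, 11.60 and 11.55 in Mn1wt and 11.29, 11.34 and 11.37 in Mn1null. Its groups lay 0.086 apart without overlap, with Mn1null the lower, and the difference of -0.20 ± 0.064 (95% interval -0.35 to -0.051) just missed the threshold (limma adjusted p = 0.0545). With probe sets under the 30th percentile of signal left out, so that fewer were tested, Lyl1 passed (adjusted p = 0.0301), as it did with an intensity trend in the model (adjusted p = 7.33e-04).

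The log2 ratio of Tal1 over Lyl1 was -3.19 ± 0.081 in Mn1wt and -2.07 ± 0.034 in Mn1null (SD, n = 3 each), a shift of 1.12. This is a description that follows from the values of both genes above, which already lay apart in opposite directions, and it adds no evidence to them.

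Lmo2, which encodes the LIM protein that bridges TAL1 or LYL1 to GATA factors, was the 1 gene of the 10 that fell. It read 12.83, 12.87 and 12.86 in Mn1wt and 11.98, 12.06 and 12.05 in Mn1null, on a probe set at the 98.6th percentile of signal. The highest Mn1null value lay 0.77 below the lowest Mn1wt value. The difference was -0.83 ± 0.057 (SE), a 1.77-fold fall (limma adjusted p = 4.38e-05), and the transcript still gave one of the strongest signals of the array in Mn1null (97.9th percentile).

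Klf1, the erythroid Krüppel-like factor, read 6.68, 6.83 and 6.97 in Mn1wt and 7.95, 7.86 and 7.86 in Mn1null. The groups did not overlap, and the difference was 1.07 ± 0.085 (SE, 2.09-fold, limma adjusted p = 8.42e-05). Gfi1b, whose product represses transcription within erythroid and megakaryocyte cells, read 6.74, 6.92 and 6.77 in Mn1wt and 8.55, 8.47 and 8.47 in Mn1null. The Mn1null values lay at least 1.55 above the Mn1wt values, a difference of 1.69 ± 0.070 (3.22-fold, adjusted p = 3.38e-06), close in size to those of Gata1 and Gata2.

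Mitf, the mast cell and melanocyte factor, did not separate the groups on either probe set. The brighter one read 7.19, 7.32 and 7.42 in Mn1wt and 7.27, 7.22 and 7.33 in Mn1null, a difference of -0.038 with a 95% interval of -0.22 to 0.14 (limma adjusted p = 0.786). The dimmer one read between 3.99 and 4.29 in all 6 samples, just above the floor, with a difference of 0.024 (adjusted p = 0.896). Mitf has several start sites, 3 of them among the RefSeq windows, and it is not known here which of its transcripts the 2 probe sets read.

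**Figure D2:**
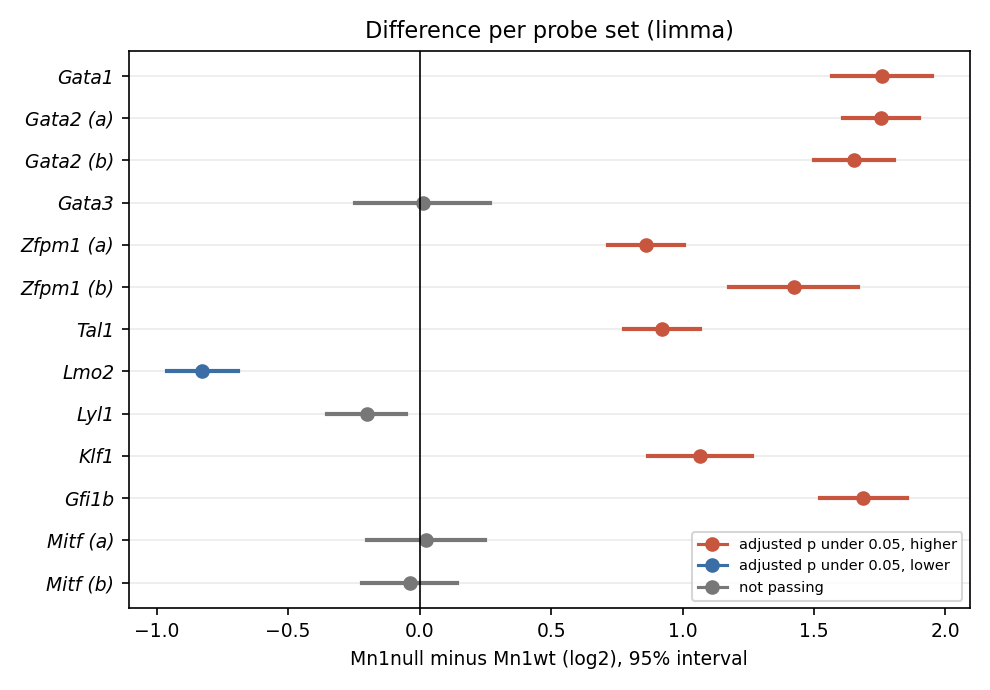
Difference between the groups (Mn1null minus Mn1wt, log2, horizontal axis) of each probe set of the 10 genes, with the 95% interval of the limma model and n = 3 per group. The points of Gata1, Gata2 and Gfi1b lie between 1.65 and 1.76, Lmo2 lies at -0.83, and the intervals of Gata3 and of both Mitf probe sets include 0.

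**Figure D3:**
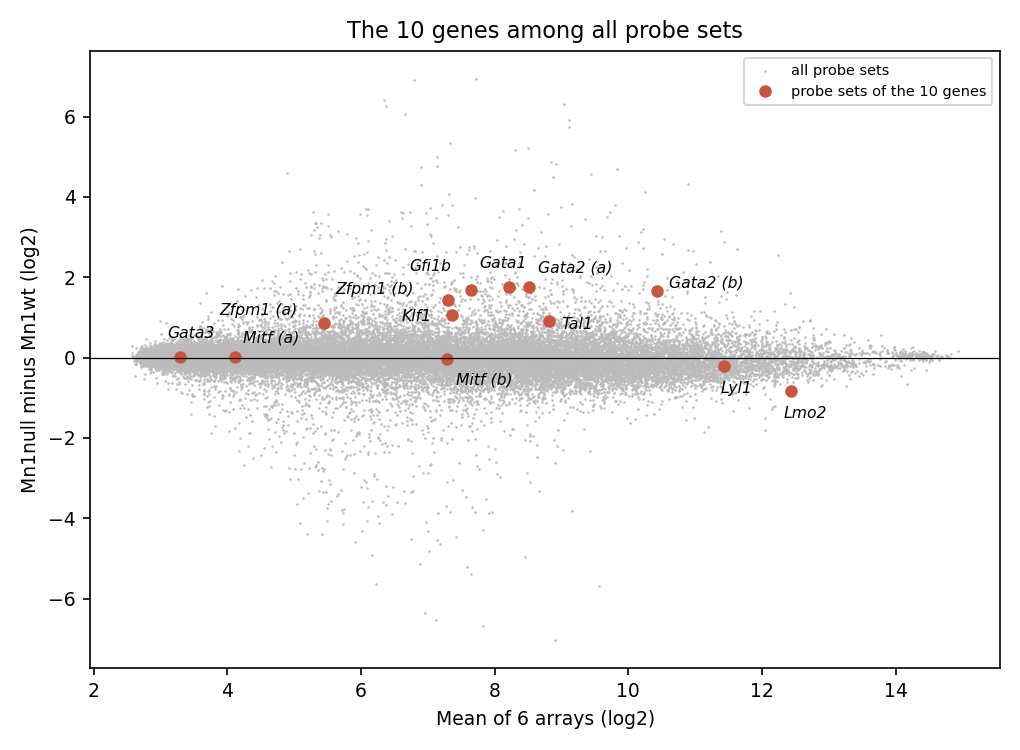
Difference between the groups (Mn1null minus Mn1wt, log2) against the mean of the 6 arrays (log2) for all 45037 probe sets in grey, with the 13 probe sets of the 10 genes in red. Gata1, Gata2 and Gfi1b lie above the grey band at middle to high signal, Gata3 and the dimmer Mitf probe set lie at the low end, and Lyl1 and Lmo2 at the high end.

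The profiles most like that of Gata1 over the 6 arrays, by the root mean square difference after centring each gene, were those of the tetraspanin genes Cd82 (0.0595) and Tspan32 (0.0676), Phlda3 (0.0699), the adhesion receptor gene Pecam1 (0.0800) and the caveola gene Cavin1 (0.0842). Gfi1b came next in this order of 18193 genes, at 0.0853, Gata2 was 24th and Zfpm1 217th. Those most like Gata2 were Cdkn1a (0.0399), the cell cycle inhibitor p21, then Tcn2 (0.0444), Unc13d (0.0478), Glb1 (0.0499) and Ank (0.0504). With 2 groups of 3 arrays, likeness here means a difference of nearly the same size.

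The partners of these factors moved in both directions. Of 35 measured partners and corepressors, 7 rose and 11 fell (20.0% and 31.4%, against 16.7% and 18.0% of all genes), with a median of -0.12, against 0.000133 for all genes. Among those that rose, Cbfa2t3, the ETO2 corepressor of the TAL1 complex, differed by 0.88, and the LDB1-binding proteins Ssbp3 and Ssbp2 by 0.57 and 0.53. Cbfa2t3 passed on all 4 of its probe sets (0.46 to 0.88), while Ssbp2 passed on 2 of 4. With 1 array left out, 6 to 7 partners were higher and 8 to 9 lower. Chd4 did not pass on its brightest probe set (0.063), but its others gave -0.79 and -0.60, both past the threshold. Crebbp did not pass on its brightest probe set (0.0057), while others gave -0.86 and 0.93, both past the threshold.

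The steepest fall among the partners was that of Lmo1, a LIM-only relative of Lmo2, from 8.48 ± 0.10 to 4.85 ± 0.17 (SD, n = 3 each), which is 12.4-fold (limma adjusted p = 4.45e-07). Its Mn1null mean lay near the floor, so the fall may be understated. Ctbp2, a corepressor that binds FOG proteins, fell by 1.64, and the E protein gene Tcf4 fell by 1.05, while the E protein gene Tcf12 rose by 0.32. Ldb1, which joins LMO2 to the complex, differed by -0.12 and did not pass (adjusted p = 0.364), nor did Tcf3, the E protein that pairs with TAL1 (-0.15, adjusted p = 0.162).

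Among 14 same-family factors, 2 rose and 4 fell (14.3% and 28.6%, against 16.7% and 18.0% of all genes), with a median of 0.00045. Tfec, a relative of Mitf, fell from 11.73 ± 0.047 to 10.23 ± 0.074 (SD, n = 3 each), which is 2.83-fold (limma adjusted p = 4.24e-06), whereas Tfe3, another relative, rose by 0.31 and Tfeb did not pass (-0.065, adjusted p = 0.569). The GATA-type repressor gene Trps1 fell by 0.89. Gfi1, the paralogue of Gfi1b, fell by 0.39 (adjusted p = 0.00312), opposite in sign to Gfi1b. Klf3 differed by 0.25 (adjusted p = 0.0421), but another of its 7 probe sets gave -0.37 (adjusted p = 0.00992), and its call was lost with each array left out in turn (adjusted p = 0.0558 to 0.113). Lmo3 fell by 0.26 at group means of 3.75 and 3.49, near the floor. Its call was kept without Mn1wt replicate 2 and lost without any other array. Gata4, Gata5 and Gata6, which belong to other tissues, did not pass.

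Of 16 other lineage factors, 7 rose and 5 fell (43.8% and 31.2%, against 16.7% and 18.0% of all genes), with a median of 0.10. Zbtb16, the PLZF factor, rose by 1.70, the myeloid factor Cebpa by 0.93 and the progenitor factor Hhex by 0.68. Mef2c had the steepest fall (-6.69), the monocyte and dendritic cell factor Irf8 fell by 1.79, and the lymphoid factor Ikzf1 by 0.55. Spi1, which encodes PU.1, the known antagonist of GATA1, differed by 0.19 and did not pass (limma adjusted p = 0.0935). Bcl11a did not pass on its brightest probe set (-0.071, limma adjusted p = 0.668). Others of its 7 probe sets rose by 0.92, 1.07, 1.34 and 1.86, all past the threshold, and the rest gave 0.28 and -0.088 without passing.

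**Figure D4:**
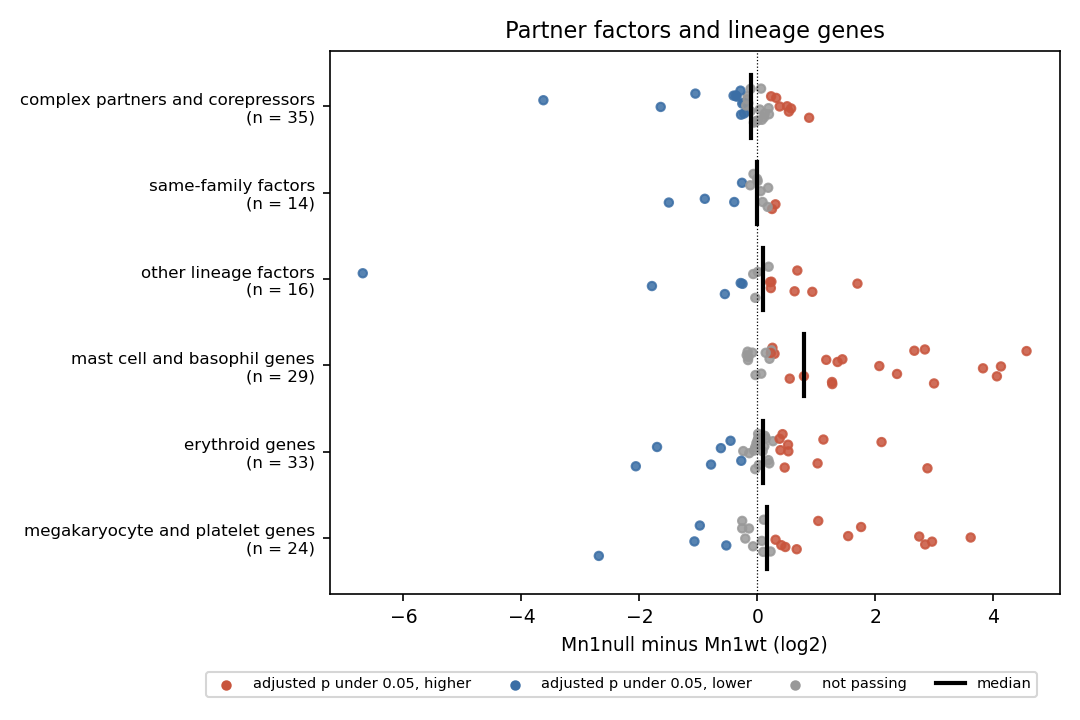
Difference between the groups (Mn1null minus Mn1wt, log2, horizontal axis) for each measured gene of 6 lists, 1 point a gene (its brightest probe set on average), coloured by limma's call at an adjusted p of 0.05, with a bar at the list's median. The mast cell and basophil list has its median at 0.79, and those of the erythroid and megakaryocyte lists lie at 0.0897 and 0.167.

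The gene lists of the 3 lineages differed in how many genes were higher. They were drawn up with earlier results of these data known, so their shares describe the lists and are not a test. Of 29 measured mast cell and basophil genes, 19 rose (65.5%, against 16.7% of all genes) and 0 fell by limma (1 at an unadjusted p under 0.05, Kit, the stem cell factor receptor, with a difference of -0.17), with a median of 0.79. The top 3 rises were those of Hdc, the enzyme that makes histamine (4.56), the carboxypeptidase Cpa3 (4.13) and Cd200r3 (4.06). Slc18a2, which loads histamine into granules, rose by 3.83 and the IgE receptor subunit gene Ms4a2 by 2.37. The granule serine protease genes were divided. Gzmb rose by 2.84, the tryptase gene Tpsg1 by 0.79 and the basophil protease gene Mcpt8 by 0.55, from a Mn1wt mean of 11.20. The chymase gene Cma1 (-0.15) and the tryptase genes Tpsb2 (-0.084) and Tpsab1 (0.067) did not pass, and their group means lay between 4.22 and 5.07. Mcpt2 and Mcpt4 passed with 0.29 and 0.26, at group means of 3.54 to 3.85, and the call of Mcpt4 was lost with each array left out in turn (limma adjusted p = 0.0533 to 0.133). That of Mcpt2 was kept without Mn1wt replicate 2 and lost without any other array. The call of Srgn (0.23) was kept without Mn1null replicate 3 and lost without any other array. With 1 array left out, 16 to 17 genes of the mast cell and basophil list were higher. In RNA from a mixed sample, more cells of a type and more RNA per cell cannot be told apart.

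Erythroid genes changed in both directions. Of 33 measured, 10 rose and 6 fell (30.3% and 18.2%, against 16.7% and 18.0% of all genes, so the share that fell was that of the background), with a median of 0.0897. Tfr2, the second transferrin receptor and a known partner of the erythropoietin receptor, rose from 8.70 ± 0.021 to 11.58 ± 0.047 (SD, n = 3 each), which is 7.38-fold (limma adjusted p = 1.41e-07), with 2.64 on its other probe set. Icam4 rose by 2.11 and the Rh-associated gene Rhag by 1.12. The embryonic globin genes Hbb-bh1 and Hbb-y fell by 2.06 and 1.70, and the adult alpha globin gene Hba-a2 by 0.79. The 10 that rose also included Car1 (1.02), Uros (0.53), Kel (0.52), Car2 (0.46), Epor (0.43), Gypc (0.39) and Ppox (0.38). The 6 that fell also included Alad (-0.62), Aqp1 (-0.45) and Cpox (-0.27). Several genes that GATA1 and KLF1 are known to activate did not pass. Alas2, the first enzyme of erythroid haem synthesis, had group means of 4.15 and 4.13. The membrane genes Slc4a1 and Epb42 differed by 0.27 and 0.13. The group means of Alas2, Slc4a1 and Epb42 lay under the median signal of all probe sets (5.21), and RMA compresses low signals. The globin genes are close copies of each other, and whether their probe sets tell them apart was not checked.

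Of 24 measured megakaryocyte and platelet genes, 11 rose and 4 fell (45.8% and 16.7%, against 16.7% and 18.0% of all genes, so the share that fell was near the background), with a median of 0.167. Itga2b, a known GATA1 target that encodes the integrin CD41, rose by 3.62, the thrombin receptor gene F2r by 2.96 and the granule traffic gene Rab27b by 2.85. One of the other probe sets of Rab27b gave -0.035 (limma adjusted p = 0.89). Gp1bb did not pass on its brighter probe set (0.22), but its other one fell by 2.16 (limma adjusted p = 1.55e-04). With arrays left out in turn, the call of Clec1b (-0.53) was lost for 4 of them and that of Nbeal2 (0.31) for 5. Genes of alpha granule proteins changed in both directions. Selp, Ppbp and Pf4 fell by 2.69, 1.07 and 0.98. The thrombospondin gene Thbs1 rose by 2.74, with 2.43 on its other probe set, and the von Willebrand factor gene Vwf rose by 1.54 from a Mn1wt mean of 4.46, near the floor.

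Markers of other cells were read in the same arrays, where 16.7% of all genes rose and 18.0% fell. The shares called were 11.1% in each direction for T and NK cell genes, 10% in each for B cell genes, 16.7% higher and 8.33% lower for stroma and endothelium genes, and 25% higher and 58.3% lower for monocyte and macrophage genes. Of 18 measured T and NK cell genes, 2 rose (Thy1 by 2.34 and Lat by 2.30, the latter also an adaptor of the mast cell IgE receptor) and 2 fell (Cd28 by 3.78 and Il7r by 0.36), and their mean level lay between 5.40 and 5.45 in the Mn1wt arrays and between 5.42 and 5.49 in the Mn1null arrays. Of 10 B cell genes, 1 rose (Vpreb1, 0.81) and 1 fell (Cd79b, -0.91), with mean levels of 5.07 to 5.25 and 5.12 to 5.27. Of 12 stroma and endothelium genes, 2 rose (Pecam1, 1.78, and Pdgfrb, 1.76, with 6.42 on its other probe set) and 1 fell (Dcn, -0.27, a call lost without Mn1wt replicate 2 or 3 or Mn1null replicate 1 or 2), with mean levels of 4.89 to 4.98 and 5.12 to 5.18. Of 12 monocyte and macrophage genes, 3 rose (Adgre1, Fcgr1 and Itgam, by 0.84 to 1.11) and 7 fell, led by F13a1 (-5.69), Ctss (-5.39) and Ccr2 (-3.60), and their mean level was 8.29 to 8.44 in Mn1wt and 6.70 to 6.75 in Mn1null. The part of these cell type genes in the differences of the 10 factors was not tested.

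Mn1 itself was read by 1 probe set near the floor, at 4.35 ± 0.20 in Mn1wt and 4.13 ± 0.071 in Mn1null (SD, n = 3 each), and did not pass (-0.22, limma adjusted p = 0.182). The labels do not place this probe set inside or outside the deleted part, so it does not check them. Arrays correlated at 0.998 within groups and at 0.979 to 0.980 between them, across 18193 genes, which are not independent replicates. The bacterial labelling controls, added to RNA before labelling, were lower in Mn1null at their 5′ probe sets (7.32 ± 0.10 against 6.47 ± 0.059, a difference of -0.85). They differed by -0.49 at their middle and by -0.30 at their 3′ probe sets. The mean of each of these labelling classes separated the groups without overlap. The hybridisation controls differed by -0.094, with overlap. The part of these controls in the differences of the 10 genes was not tested.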

How the data were processed

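RNA of 6 samples, 3 Mn1wt and 3 Mn1null, was read on 6 Affymetrix mouse arrays of 1 colour, with groups and replicate numbers taken from the sample titles. Per the labels' protocols, Trizol RNA was amplified by in-vitro transcription and labelled with biotin. The authors deposited log2 expression values for each probe set, and the submitters' processing notes name RMA. That method corrects background, equalises the arrays' distributions and combines probes, which removes global shifts and compresses low signals. Its version and any filter were not given in the sources used here. Array medians lay between 5.17 and 5.23, and the number of arrays limits the precision.

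Of 45101 probe sets, 64 Affymetrix controls were kept out of tests. Of the other 45037, the platform annotation named 1 gene for 34945, several for 932 and listed none for 9160. All 13 probe sets of the 10 genes had an Entrez identifier with the same symbol in RefSeq (GRCm38.p6), and 0 probe sets named 1 of these genes together with another. The test was that of limma 3.58.1 (lmFit, eBayes; R 4.3.3), 2-sided, without a block or a filter, with Benjamini-Hochberg adjustment over the 45037 probe sets. Genes in lists were read from the probe set brightest on average over the 6 arrays. From lists outside the 10 genes, the text names the up to 3 genes per direction with the largest difference among those past the threshold whose groups did not overlap. Other genes of the lists, such as Alas2, Ldb1, Spi1, Vwf, Thbs1, Zap70, Slc18a2 and the mast cell protease genes, were named after their values were seen. The 10 genes and the lists were chosen with earlier results of these data known. The limma step was tested on simulated data with known differences. Motifs were searched in the 250 bases before each RefSeq start site. The alternatives tried were filters on low signal, other scalings, an intensity trend, array weights, the replicate block, a threshold of 0.01, other rules for probe sets and each array left out in turn.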

Additional observations from a re-analysis of the deposited data

How the results depend on the processing

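Of 179 values of the 13 probe sets under alternatives, 176 kept their direction and side of the threshold or stayed without a call, and the other 3 were those in which Lyl1 passed (30th percentile filter, adjusted p = 0.0301; 50th percentile filter, 0.0153; intensity trend, 7.33e-04); over all alternatives its adjusted p lay between 7.33e-04 and 0.157. The lower count of probe sets and of genes among the 10 factors was then 2, as it was for genes with the mean of the probe sets of a gene, and it was 0 with probe sets designed for 1 transcript only, where Lmo2 and Gata2 have none. With 1 array left out it stayed at 1.

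Deviations of same-numbered samples correlated at -0.036, 0.078 and 0.023, so the shared replicate numbers were not taken as a pairing. The replicate block gave 5293 probe sets higher and 5903 lower in all, and 8 higher and 1 lower of the 13 probe sets. It changed no call of the 10 genes, but left 1 same-family gene higher and 0 stroma and endothelium genes lower. Same-family genes higher were also 1 with quantile normalization, a threshold of 0.01 and the mean of the probe sets, 1 with any array left out, and 0 with 1-transcript probe sets. Stroma and endothelium genes lower were 0 with the 50th percentile filter, the intensity trend, the threshold of 0.01 and the mean of the probe sets, and 0 to 2 with 1 array left out (2 without Mn1wt replicate 1, 1 without Mn1null replicate 3, otherwise 0). Mast cell genes lower were 1 with either filter and the trend, and 0 to 1 with 1 array left out (1 without Mn1wt replicate 3). T and NK cell genes lower were 1 with the 50th percentile filter. At 0.01, 6 partners were lower, and 4 other lineage factors were higher and 3 lower. With 1 array left out, other lineage factors higher were 4 to 6 (4 without Mn1wt replicate 2 or Mn1null replicate 1), and B cell genes higher 1 to 2 (2 without Mn1null replicate 3). With 1-transcript probe sets, 4 partners and 1 stroma and endothelium gene were higher and 3 erythroid genes lower. The cause was not tested, beyond the fewer probe sets that filters and that rule leave. The median difference of all probe sets was -0.00703 with quantile normalization and -0.00997 with median centring. Signals near the floor limit what Gata3 and the dimmer Mitf probe set can show.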
